A study of Mus musculus with 6 samples.

Results

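Gas5, Snhg1, Snhg3, Snhg5, Snhg6, Snhg8, Snhg12 and Snhg15 are 8 noncoding transcripts that carry small nucleolar RNAs (snoRNAs) in their introns. They were chosen by symbol from a table of 48897 genes, all 8 were present, and all 8 passed the filter on low counts. RNA-seq counts were measured in C57BL/6 mouse embryonic fibroblasts, passages 5 to 7, a primary culture of mixed embryonic connective tissue cells. Control cells received PBS. The TC group received TNF-ɑ, an inflammatory cytokine, together with Cycloheximide, an inhibitor of translation elongation. The TCZ group received both agents and z-VAD-fmk, a broad caspase inhibitor. Each group had 2 libraries of poly(A)-selected RNA. No group had TNF-ɑ or Cycloheximide alone, so the effects of these agents cannot be told apart. The sources used here give neither doses nor times.

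snoRNAs guide the chemical modification of ribosomal RNA, or its cleavage, and in mammals most are cut out of the introns of longer host transcripts. In the noncoding hosts the intron holds the functional product, and the spliced exons carry only short reading frames. Spliced host RNAs such as Gas5 and Snhg1 reach the cytoplasm and are loaded onto ribosomes. Translation of the short frame ends far upstream of an exon junction, which makes the RNA a substrate of nonsense-mediated decay, and such RNAs are known to accumulate when translation is blocked. Several also begin with a run of C and T letters, the 5′ terminal oligopyrimidine tract shared with ribosomal protein mRNAs.

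The sequences around the annotated starts of the hosts are shown because this start region is where the oligopyrimidine tract would lie. RefSeq promoter sequences (GRCm38.p6) matched the table's annotated start for 7 of the 8 hosts, all but Snhg6. Each line runs from 50 bases before the start to 50 bases from it, on the strand of the gene. Capitals mark the longest run of C and T that touches the window from 10 bases before the start to 15 from it, and the letters TATA where they lie between 40 and 16 bases before the start.
Snhg15, chr11:6528711-6528810, minus strand: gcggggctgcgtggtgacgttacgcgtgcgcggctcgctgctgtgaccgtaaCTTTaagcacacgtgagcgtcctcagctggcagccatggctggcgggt
Snhg1, chr19:8723437-8723536, plus strand: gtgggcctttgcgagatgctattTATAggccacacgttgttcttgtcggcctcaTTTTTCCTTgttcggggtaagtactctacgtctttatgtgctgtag
Snhg12, chr4:132308628-132308727, plus strand: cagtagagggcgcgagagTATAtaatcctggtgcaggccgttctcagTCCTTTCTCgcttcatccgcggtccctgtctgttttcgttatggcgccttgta
Gas5, chr1:161035116-161035215, plus strand: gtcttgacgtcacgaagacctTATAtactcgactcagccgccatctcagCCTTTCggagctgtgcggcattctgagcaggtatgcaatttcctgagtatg
Snhg5, chr9:88522848-88522947, minus strand: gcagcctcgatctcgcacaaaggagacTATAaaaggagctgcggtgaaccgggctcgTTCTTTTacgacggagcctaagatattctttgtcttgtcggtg
Snhg8, chr3:123508287-123508386, minus strand: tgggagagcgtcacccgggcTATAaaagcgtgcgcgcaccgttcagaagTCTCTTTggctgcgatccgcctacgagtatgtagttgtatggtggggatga
Snhg3, chr4:132353637-132353736, minus strand: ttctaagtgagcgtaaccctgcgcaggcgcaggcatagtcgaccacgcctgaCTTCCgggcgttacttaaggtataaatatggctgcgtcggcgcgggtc

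The C and T run was 9 bases in Snhg1 and Snhg12, 7 in Snhg5 and Snhg8, 6 in Gas5, 5 in Snhg3 and 4 in Snhg15. Counting the annotated start as base 1, it began at base 3 in Snhg3 and Snhg15, 5 in Snhg1 and 8 in Snhg5. In Gas5, Snhg8 and Snhg12 it began before the start. By these starts no run began at the start base itself. Among 32851 promoter sequences of the same length, the median run was 5 bases, and 10.7% had a run of at least 9, 22.3% of at least 7 and 69.9% of at least 4. TATA lay in the stated window in 5 of the 7 hosts and in 5.91% of all promoters. In Snhg3 these letters lie after the annotated start. The palindrome CACGTG, searched over the whole 300-base sequence, was present in Snhg15 and in 7.15% of all promoters. The palindrome TGACGTCA was present in Gas5 and Snhg15 and in 1.79% of all promoters. These palindromes and TATA read the same on both strands, the motifs were chosen after the sequences had been seen, and a match is no evidence of a bound factor.

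In the GENCODE M21 annotation of the same genome, 30 snoRNA entries lie inside the 8 intervals on the host strand: 10 in Gas5, 8 in Snhg1, 5 in Snhg12, 2 each in Snhg3 and Snhg5, and 1 each in Snhg6, Snhg8 and Snhg15. A reading frame was taken from the first ATG of each of the 24 spliced transcripts that start within 10 bases of the table's start. The frames were 1 to 54 codons long. Their stop lay more than 50 bases before the last exon junction in 21 of the 24 transcripts, and in at least 1 transcript of 7 hosts. The share of other annotated noncoding transcripts with such a stop was not determined, so the count does not set the hosts apart. Of these 24, 11 are of the retained-intron type, among them 8 of the 10 of Gas5 and both of Snhg1, and of the other 13 the stop lay that far upstream in 11. Snhg3, with 1 such transcript and a frame of 42 codons, was the host without. Among Snhg3 transcripts that start elsewhere, some had the stop that far upstream (90 and 205 bases) and others did not. The table's length for Gas5 is 2554 bases, close to the longest of its 10 transcripts among the 24, which span 346 to 2556 bases. Of the 25 Gas5 transcripts annotated, 20 are of the retained-intron type, so that its counts may include unspliced introns as well as exons.

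Total counts ranged from 24922627 to 52909926 per library. Control 2 and TCZ 2 were the shallowest and stood apart in small RNAs: Rnu1a1, a U1 RNA, had 3 and 1 counts there against 165 to 274 in the other 4 libraries. Rn7s1 had 1338 and 4 counts there, against 4916 to 6106 in the other 4 libraries, so control 2 and TCZ 2 also differed from each other. TC libraries had lower fibroblast and higher epithelial marker levels than control. The 8 fibroblast markers summed to 24996 and 23141 CPM (control), 17035 and 17637 (TC) and 24370 and 22019 (TCZ), with 7 lower and 1 higher in TC against control. Of the 5 epithelial markers tested 4 were higher, and their sums were 19.3 and 16.6 CPM (control), 81.9 and 75.1 (TC) and 17.6 and 13.4 (TCZ). Among 4 endothelial markers 1 was higher and 1 lower, and sums in the same order were 11.8 and 12.5, 146 and 139, and 56.5 and 55.6 CPM, most of it in TC from the receptor gene Kdr. The 5 leukocyte markers summed to 6.43 and 7.06 CPM in control, 7.00 and 7.96 CPM in TC, and to more in TCZ, at 12.7 and 15.5 CPM, and 1 of them was higher in TC. In TCZ against control, 3 of the 4 endothelial markers were higher and 0 lower, among them Pecam1, an adhesion molecule of endothelial and blood cells, which went from 0.02 and 0.13 CPM to 10.9 and 10.8 CPM. Of the leukocyte markers 2 were higher, Cd68 and Itgam, an integrin subunit of myeloid cells, which went from 0.33 and 0.63 CPM to 3.57 and 5.91 CPM. Of the fibroblast markers 1 was higher and 3 lower, among them the receptor gene Pdgfra, from 112 and 99.8 CPM to 17.8 and 15.1 CPM, and of the epithelial markers 1 was higher and 1 lower. These counts are to be read against all genes tested, of which 31.6% were higher and 29.2% lower in TC against control. In TCZ against control the shares were 31.5% and 28.6%. No marker of these lists was at 0 in all libraries. The part of these markers in the results below was not tested, and in bulk RNA fewer cells of a type and less RNA per cell cannot be told apart.

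TC was compared with control to ask which hosts changed under TNF-ɑ with Cycloheximide. The hosts did not move together: 5 of 8 rose, 0 fell, and the size ran from 7.16-fold to changes that did not pass the test. Of all 18563 genes tested 31.6% rose and 29.2% fell, or 5857 and 5412 genes, which became 5079 and 6586 with library totals alone in place of TMM, the trimmed mean of M-values. On the TMM scale 17.6% of all genes rose by at least 1 on the log2 scale, as did 3 of the 8 hosts. The median log2 fold change of the hosts was 0.58, against 0.02 over all genes tested. Adjusted p-values are from edgeR's quasi-likelihood test with Benjamini-Hochberg adjustment over all genes tested, CPM is counts per 1e6 scaled by TMM, and n = 2 throughout.

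Snhg15, host of Snora9 and known as a short-lived transcript (chromosome 11, 6525591 to 6528760, minus strand), stood at 7.00 and 7.76 CPM in control and at 51.8 and 53.4 CPM in TC. Both TC libraries lay far above both control libraries, and its log2 fold change of 2.84 ± 0.10 (SE) was the largest of the 8 (adjusted p = 2.36e-16). Snhg1, the host first known for U22 and its neighbouring box C/D snoRNAs (chromosome 19, 8723487 to 8726326, plus strand), stood at 19.04 and 20.7 CPM in control and at 110 and 103 CPM in TC. It rose by 2.43 ± 0.08 on the log2 scale, or 5.38-fold (adjusted p = 8.54e-17). Snhg12, which holds several box H/ACA snoRNAs and Snord99 (chromosome 4, 132308678 to 132311024, plus strand), stood at 13.4 and 10.4 CPM in control and at 40.1 and 47.8 CPM in TC. Its log2 fold change was 1.87 ± 0.11 (adjusted p = 2.25e-12), and its control and TC libraries were well separated although each pair was wider than that of Snhg1.

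Snhg6, host of Snord87 (chromosome 1, 9942025 to 9944118, minus strand), rose less than these. It had 18.0 and 18.3 CPM in control and 34.6 and 32.4 CPM in TC, a log2 fold change of 0.88 ± 0.09 (adjusted p = 9.26e-09). Gas5, the growth-arrest transcript used as a standard example of a host degraded during translation (chromosome 1, 161035166 to 161038537, plus strand), had 69.1 and 75.8 CPM in control and 90.7 and 84.6 CPM in TC. The groups did not overlap, but the change was 1.21-fold (log2 0.28 ± 0.07, adjusted p = 0.00304). That call ended with library totals in place of TMM (log2 0.13, adjusted p = 0.123), without control 1 (0.21, adjusted p = 0.0627) and without TC 1 (0.22, adjusted p = 0.0921).

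The other 3 hosts did not pass. Snhg5, host of the Snord50 pair (chromosome 9, 88521052 to 88522897, minus strand), had 17.0 and 13.2 CPM in control and 17.0 and 17.7 CPM in TC (log2 0.19 ± 0.11, adjusted p = 0.135). Its TC libraries lay just above the higher control library, and without control 1 it passed (log2 0.40, adjusted p = 0.0143). Snhg8, host of Snora24 (chromosome 3, 123507552 to 123508336, minus strand), had 13.0 and 12.1 CPM in control and 14.0 and 11.9 CPM in TC, with the control libraries inside the TC range (log2 0.04 ± 0.12, adjusted p = 0.803). Snhg3, host of the Snora73 (U17) pair (chromosome 4, 132351933 to 132353686, minus strand), was scarce, with 29 and 12 reads counted in control against 20 and 17 in TC. Its control and TC libraries overlapped in CPM, and at this depth the log2 estimate of -0.43 ± 0.53 (adjusted p = 0.509) leaves its direction undetermined.

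**Figure D1:**
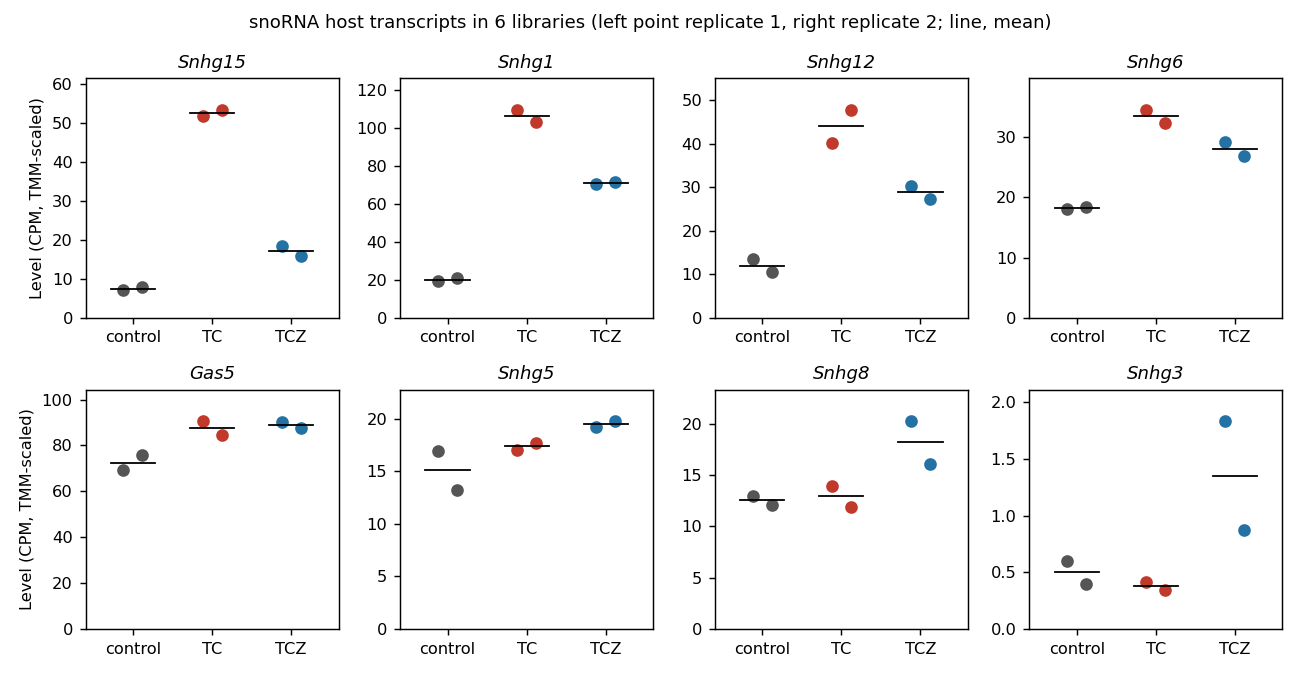
Level of each host (CPM scaled by TMM, linear axes from 0) in control, TC and TCZ, with a point per library and a line at the group mean. Snhg15, Snhg1, Snhg12 and Snhg6 are highest in TC and intermediate in TCZ, while Snhg8 and Snhg3 are highest in TCZ with a wide gap between the TCZ libraries.

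TCZ was compared with control to ask which hosts changed under the same agents when caspases were inhibited. All 8 hosts rose and 0 fell, with 4 rising by at least 1 on the log2 scale. Of all genes tested 31.5% rose and 28.6% fell, and 18.3% rose by that much. The median log2 fold change of the hosts was 0.93, against 0.05 over all genes. This comparison shares its control libraries with the previous comparison. Among all genes tested, 5851 were higher and 5313 lower, or 4556 and 7019 with library totals alone, which moved the median log2 fold change of all genes by -0.20 (-0.14 in TC against control). Changes are given relative to the TMM scale.

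Snhg1 had 70.7 and 71.7 CPM in TCZ, which put it 3.59-fold above control (log2 1.85 ± 0.08, adjusted p = 8.11e-15). Snhg12 had 30.4 and 27.2 CPM in TCZ (log2 1.27 ± 0.11, adjusted p = 2.43e-09). Snhg15 had 18.3 and 15.9 CPM (log2 1.23 ± 0.10, adjusted p = 8.19e-10). These 3 transcripts again rose more than Snhg6, which had 29.2 and 26.9 CPM in TCZ (log2 0.63 ± 0.09, adjusted p = 2.14e-06). In all 4, both TCZ libraries lay above both control libraries and below both TC libraries. The share of all genes with this order was not determined.

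Snhg8 had 20.3 and 16.1 CPM in TCZ and its log2 fold change was 0.55 ± 0.12 (adjusted p = 0.000442). Snhg5 had 19.2 and 19.8 CPM in TCZ (log2 0.35 ± 0.11, adjusted p = 0.00833). Its call rested on control 2, the lower control library: leaving it out gave a log2 value of 0.18 (adjusted p = 0.221), and leaving out TCZ 2 as well gave 0.17 (adjusted p = 0.282). Library totals gave 0.16 (adjusted p = 0.192). Gas5 had 90.1 and 87.5 CPM in TCZ (log2 0.30 ± 0.08, adjusted p = 0.00182), again a small rise, which did not pass with library totals (0.09, adjusted p = 0.263) or without control 1 (0.22, adjusted p = 0.0522).

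Snhg3 had 89 and 21 counts in TCZ, or 1.83 and 0.87 CPM against 0.60 and 0.40 in control. Its log2 fold change of 1.45 ± 0.50 (adjusted p = 0.0163) was carried mainly by TCZ 1: without that library it was 0.77 (adjusted p = 0.419), and without control 2 it was 1.20 (adjusted p = 0.103). Snhg3 also overlaps an opposite-strand noncoding gene over 1450 bases, and the sources used here do not say whether the counting used strand.

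**Figure D2:**
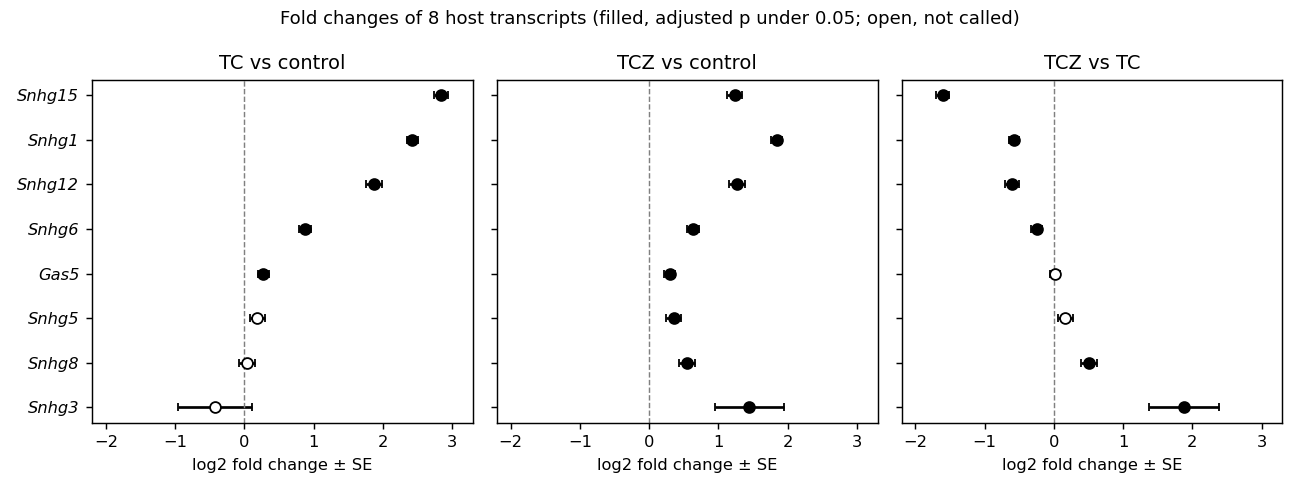
Log2 fold change of each host with its standard error in the 3 comparisons, filled where the adjusted p was under 0.05. In TC against control the values run from -0.43 for Snhg3 to 2.84 for Snhg15, in TCZ against control all 8 lie above 0, and in TCZ against TC they lie on both sides of 0.

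TCZ was compared with TC to ask what adding z-VAD-fmk changed. The hosts divided: 4 of 8 were lower in TCZ, 2 were higher and 2 did not pass. Over all genes tested 27.9% were lower and 28.2% higher. Those that were lower are the hosts with the 4 largest rises in TC. Both comparisons hold the TC libraries, so this pairing of a large rise with a fall is a description only.

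Snhg15 fell from 51.8 and 53.4 CPM in TC to 18.3 and 15.9 CPM in TCZ. This was a 3.05-fold fall (log2 -1.61 ± 0.09, adjusted p = 2.39e-12) and the only one of the 8 to exceed 1 on the log2 scale downwards, where 11.7% of all genes did. Snhg12 changed by -0.60 ± 0.10 (adjusted p = 4.04e-05) and Snhg1 by -0.58 ± 0.07 (adjusted p = 6.59e-07). Snhg6 changed by -0.25 ± 0.08 (adjusted p = 0.0151), a call that ended without TC 1 (-0.21, adjusted p = 0.141), without TCZ 2 (-0.19, adjusted p = 0.138) and when control 2 was left out too (-0.19, adjusted p = 0.0972).

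Snhg8 was higher in TCZ by 0.51 ± 0.12 (adjusted p = 0.000864), from 14.0 and 11.9 to 20.3 and 16.1 CPM, with no overlap between the groups. Without TCZ 1, the higher library, the value was 0.31 (adjusted p = 0.057). Snhg3 was higher by 1.87 ± 0.50 (adjusted p = 0.00328), the only host of the 8 to rise by at least 1 on the log2 scale, as 11.6% of all genes did, or by 1.19 without TCZ 1 (adjusted p = 0.197). Gas5 (0.02 ± 0.07, adjusted p = 0.83) and Snhg5 (0.16 ± 0.11, adjusted p = 0.201) did not pass. The TC and TCZ libraries of Gas5 overlapped, while those of Snhg5 did not.

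The order of the hosts among themselves can be compared only per length, for which the deposited RPKM values (reads per kilobase of the table length and per 1e6 counted reads) were used. In control Snhg6 stood highest at 48.4 ± 3.12 RPKM (SD) by the lengths in the table, followed by Snhg1 at 45.3 ± 4.98, whose libraries overlapped with those of Snhg6. Gas5 followed at 30.8 ± 3.61 and Snhg12 at 21.1 ± 2.67. Snhg8 at 17.3 ± 0.05, Snhg5 at 16.1 ± 2.00 and Snhg15 at 13.5 ± 1.68 came next, with overlap between each and the next. Snhg3 was last at 1.23 ± 0.29 RPKM.

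In TC the order changed. Snhg1 reached 219 ± 9.49 RPKM and Snhg15 was next at 86.9 ± 1.67, ahead of Snhg6 at 80.6 ± 3.96 and Snhg12 at 71.0 ± 8.75. No library of these 4 overlapped with the neighbouring host in the order. Gas5 at 33.6 ± 1.71 RPKM followed, then Snhg5 at 16.8 ± 0.43 and Snhg8 at 16.1 ± 1.87, which overlapped. In TCZ Snhg15 lay below Gas5 again, at 27.3 ± 1.64 against 32.8 ± 0.63 RPKM, while Snhg1 at 141 ± 7.02 and Snhg6 at 65.0 ± 1.28 led. This order depends on the lengths in the table, and above all on that of Gas5. With the median length of the annotated transcripts that are not of the retained-intron type, which is 502 bases for Gas5, 550 for Snhg1 and 915.5 for Snhg12, Gas5 would stand first in control at 157 ± 18.4 RPKM, ahead of Snhg1 at 39.2 ± 4.31 and Snhg6 at 35.3 ± 2.27. In TC it would be second at 171 ± 8.70, after Snhg1 at 190 ± 8.22 and above Snhg15 at 86.2 ± 1.66, and in TCZ first at 167 ± 3.23. Snhg15 ranked 7 of 8 in control with either length, and in TC it ranked 2 with the table's length and 3 with the other. Snhg3 was last in every group with both.

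**Figure D3:**
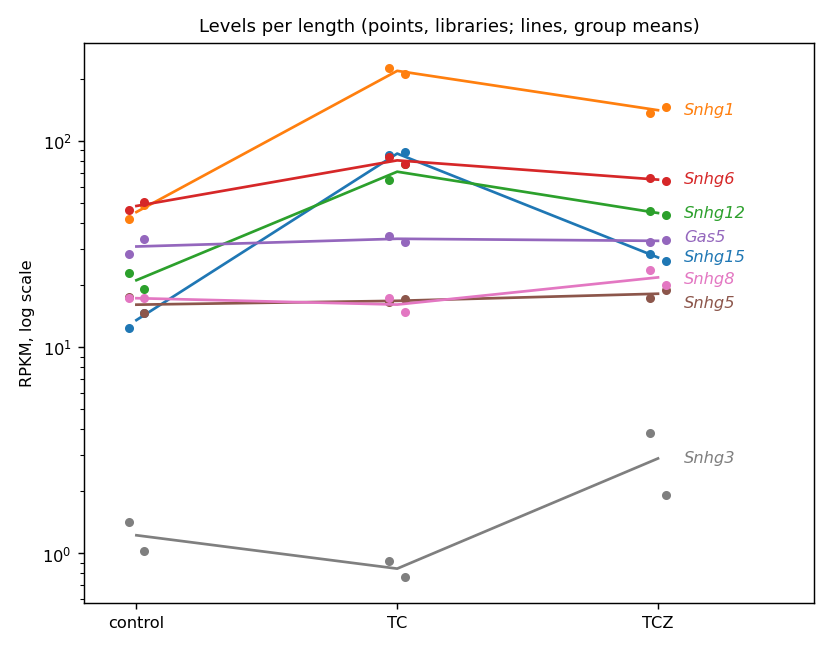
Level per length of each host (RPKM, log axis) in control, TC and TCZ, with points for libraries and lines joining group means. By the lengths in the table Snhg15, at 13.5 RPKM in control, 86.9 in TC and 27.3 in TCZ, lies above Gas5 in TC, while with a Gas5 length of 502 bases Gas5 would lie above it in every group.

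Genes that overlap a host or lie within 2 kb of it were read from the same table, since a shared start region or shared reads could move both. Of 6 such genes, 2 were higher and 2 lower in TC against control, and 1 was higher and 3 lower in TCZ. Of all genes tested 31.6% were higher and 29.2% lower in TC, and 31.5% and 28.6% in TCZ. In a list of 6 the TC counts are near those shares. The fitted log2 value of each of the 6 was below that of its host in both comparisons. Slc3a2, the heavy chain of several amino acid exchangers, starts 118 bases from Snhg1 on the other strand. It had 179 and 170 CPM in control and 253 and 252 CPM in TC (log2 0.53 ± 0.07, adjusted p = 1.71e-06), against 2.43 for Snhg1. In TCZ it was higher again than in TC (log2 0.20 ± 0.07, adjusted p = 0.0275), whereas Snhg1 was lower.

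Trnau1ap, a selenocysteine tRNA-associated protein gene 739 bases from Snhg12, rose by 0.40 ± 0.11 in TC (adjusted p = 0.00342) and by 0.12 ± 0.11 in TCZ, which did not pass (adjusted p = 0.372). Zbtb37, a zinc finger gene that starts 302 bases from Gas5 on the other strand, moved opposite to its neighbour, with -0.38 ± 0.13 in TC (adjusted p = 0.0133) and -1.13 ± 0.14 in TCZ (adjusted p = 2.75e-07). The noncoding gene ENSMUSG00000091021.1, which overlaps Snhg3 on the other strand, changed by -1.13 ± 0.23 in TC (adjusted p = 0.000264) and by -1.27 ± 0.25 in TCZ (adjusted p = 0.000125). Prss12, a secreted protease gene 950 bases from Snhg8, changed by -0.17 ± 0.24 in TC (adjusted p = 0.551) and by -0.66 ± 0.25 in TCZ (adjusted p = 0.0271). Mcmdc2, a gene of meiotic recombination that overlaps Snhg6 over 142 bases, had 10 to 30 counts per library and did not pass in either comparison. The table holds no such gene beside Snhg5 or Snhg15.

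**Figure D4:**
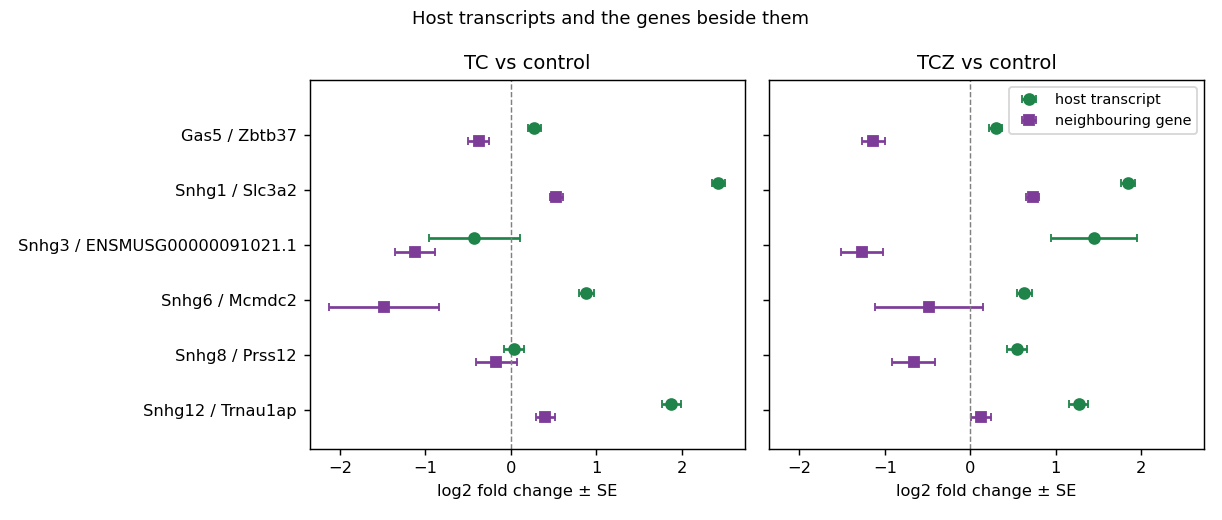
Log2 fold change with its standard error of 6 hosts (circles) and of the gene that overlaps each or lies within 2 kb (squares), in TC and in TCZ against control. In TC the value of Snhg1 was 2.43 and that of Slc3a2 0.53, while Zbtb37 lies below 0 and Gas5 above.

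The table also holds rows for 10 of the hosted snoRNAs, which are not polyadenylated and were scarce in this poly(A)-selected RNA. Together they took 172 and 91 reads of the control libraries, 111 and 118 of TC, and 63 and 37 of TCZ, or 3.54 and 3.02, 2.29 and 2.37, and 1.30 and 1.53 CPM. Their summed level was thus lower in both treated groups, with no overlap between any of the groups, but the rows did not all move alike. Snord47, in Gas5, was counted 29 and 10 times in control, 4 times and once in TC, and 0 times and once in TCZ. It was lower in TC (adjusted p = 0.00834) and in TCZ (adjusted p = 0.00258). Snord22, in Snhg1, was counted 57 and 34 times in control, 63 and 56 times in TC, and 22 and 10 times in TCZ. It did not pass in TC (log2 0.07 ± 0.39, adjusted p = 0.889) and was lower in TCZ (-1.39 ± 0.44, adjusted p = 0.00967). Of the 4 rows in Snhg12, Snora16a (adjusted p = 0.0218) and Snora61 (adjusted p = 0.0135) were lower in TCZ and none passed in TC. The other 2 of them, Snora44 and Snord99, did not pass. Snora73a, in Snhg3, went the other way in its values, being counted 12 and 4 times in the control libraries, 11 and 12 times in those of TC and 22 and 13 times in those of TCZ. It did not pass in TC (log2 0.25 ± 0.76, adjusted p = 0.796) or in TCZ (1.31 ± 0.74, adjusted p = 0.134), although its control and TCZ libraries did not overlap in CPM. Snord87, in Snhg6, had 0 to 3 counts per library and was not tested. Snora24 and Snora73b were at 0 in every library. Reads in these rows may also come from unspliced host RNA, and small RNAs differed between libraries of the same group (Rnu1a1 above), so that these counts do not measure mature snoRNAs.

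Other noncoding snoRNA hosts did not share 1 direction. Of 13 listed, 12 were in the table and 11 were tested. In TC against control 3 were higher and 5 lower, with a median log2 fold change of -0.83, and in TCZ 3 were higher and 4 lower, with a median of -0.03. Among those lower in TC, Snhg11 has the protein-coding type in the table, and the 10 others, typed as long noncoding, gave 3 higher and 4 lower in TC with a median of -0.49, and 3 and 4 in TCZ with a median of -0.07. These counts are to be read against 31.6% higher and 29.2% lower of all genes in TC, and 31.5% and 28.6% in TCZ. The hosts Snhg17, Zfas1 and Epb41l4aos rose in both comparisons. Snhg17 went from 11.5 and 13.1 CPM to 82.9 and 77.4 CPM in TC and 36.0 and 32.5 CPM in TCZ, so that it was highest in TC and intermediate in TCZ, as were Snhg15 and Snhg1. Its log2 fold change was 2.71 in TC (adjusted p = 1e-16) and it was lower in TCZ than in TC by -1.22 (adjusted p = 4.07e-11). Zfas1, host of Snord12 family members, rose by 1.43 in TC and by 1.55 in TCZ, with no call between the treated groups (adjusted p = 0.185). Epb41l4aos rose by 1.55 in TC and 1.06 in TCZ.

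Among those that fell, Snhg4 went from 7.64 and 7.63 CPM in control to 2.18 and 2.25 in TC (log2 -1.78, adjusted p = 1.76e-08). Snhg18 changed by -0.83 in TC (adjusted p = 1.08e-06), and Dancr, Snhg14 and Snhg11 fell from low levels of at most 2.43 CPM in any control library. Over all hosts typed as long noncoding that were tested, values in TC ran from -1.78 for Snhg4 to 2.84 for Snhg15, and Snhg11 lay below these at -3.37.

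**Figure D5:**
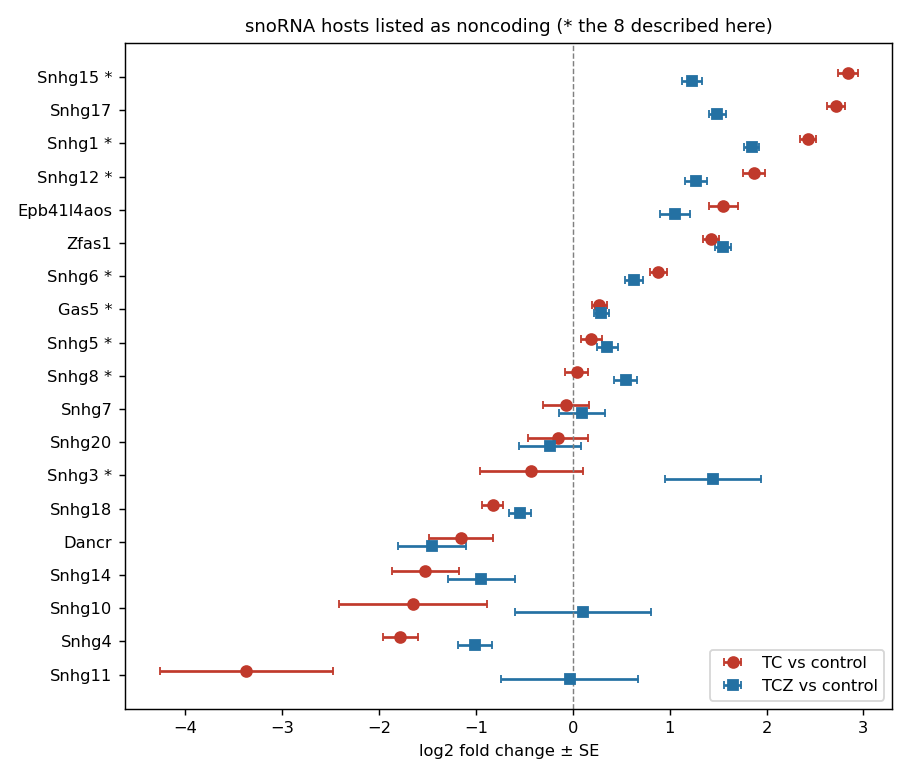
Log2 fold change with its standard error in TC (circles) and TCZ (squares) against control for the 8 hosts described here, marked with a star, and the 11 other hosts tested that were listed as noncoding, of which Snhg11 has the protein-coding type in the table. Values in TC run from -3.37 for Snhg11 and -1.78 for Snhg4 to 2.84 for Snhg15, and Snhg17, Epb41l4aos and Zfas1 lie among the highest starred hosts.

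Protein-coding snoRNA hosts, many of which encode ribosomal proteins and translation factors, were more often lower than higher in TC. Of 36 tested 5 were higher and 21 lower, with a median log2 fold change of -0.21, while 31.6% of all genes were higher and 29.2% lower. Taf1d, a subunit of an RNA polymerase I factor (1.13), and Eif4a2, a translation initiation helicase (1.10), rose most. Hspa8, a heat shock chaperone (-1.88), and Rcc1, a nuclear exchange factor (-1.04), fell most. In TCZ 9 were higher and 4 lower, where 31.5% and 28.6% of all genes were. Their median in TCZ was 0.13 against 0.05 over all genes. Pseudogenes can share reads with the ribosomal protein genes of this list. Its genes were listed by symbol, and whether each holds a snoRNA was not checked. By their annotated positions the Snora73 pair lies inside Snhg3 and outside Rcc1.

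Of 8 genes of the core box C/D and box H/ACA particles, which bind snoRNAs, 3 were higher and 2 lower in TC, where 31.6% and 29.2% of all genes were, and 4 were higher and 1 lower in TCZ, where 31.5% and 28.6% were. In a list of 8 the TC counts are near those shares. Nop58 and Nop56, box C/D core proteins whose genes are themselves snoRNA hosts, rose by 0.96 and 0.87 in TC and by 0.63 and 0.89 in TCZ. Dkc1, the pseudouridine synthase of box H/ACA particles, changed by -0.45 in TC and -0.31 in TCZ. Fbl, the methyltransferase of box C/D particles, did not pass in TC (-0.08, adjusted p = 0.42).

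Of 7 nonsense-mediated decay factors whose own mRNAs are known to be under feedback by the pathway, 3 were higher and 1 lower in TC, and 4 higher and 3 lower in TCZ, to be read against the same shares. Upf2, which bridges the core factors, rose most, from 52.3 and 50.8 CPM in control to 104 and 102 CPM in TC (adjusted p = 4.87e-11) and by 0.59 on the log2 scale in TCZ. Smg1, the kinase that acts on Upf1, rose by 0.50 in TC and 0.24 in TCZ. Among 10 other long noncoding RNAs tested, 5 were higher and 3 lower in each of TC and TCZ against control. These counts too are to be read against the same shares. Neat1, the paraspeckle scaffold, rose by 2.41 in TC and did not pass in TCZ (0.15, adjusted p = 0.0752).

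Genes with a pattern like that of the hosts were sought over the 6 libraries among 8571 genes whose mean was at least 10 CPM. Likeness was the root mean square distance between log2 CPM values centred on each gene's mean. The 8 hosts did not share a profile. Against control, Snhg15 had log2 values of 2.84 in TC and 1.23 in TCZ, and Snhg3 had -0.43 and 1.45. Their mean profile weighs each host alike and need not match any of them. For the mean profile of the 8 hosts the nearest were Clic4 (distance 0.033), Pfkfb3 (0.035), Frmd6 (0.052), Akirin1 (0.054) and S100a10 (0.055). Clic4 had log2 fold changes of 1.03 in TC and 0.91 in TCZ. For Gas5 alone they were Mrpl32 (0.042), Psme2 (0.045), Psmc5 (0.053), Sf3a1 (0.055) and Ube2e1 (0.055), and Mrpl32 had 0.23 and 0.25. All 10 are protein-coding, and with 6 libraries in 3 groups such distances mostly compare group means.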

How the data were processed

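Trizol RNA was selected for poly(A) on Dynabeads, fragmented, primed at random and sequenced on an Illumina HiSeq 2000, per the labels' protocols. The authors deposited 1 table with each library's raw counts per gene and its RPKM. The submitters' processing notes name bcl2fastq, HISAT2 2.1.0, HTSeq and build mm10. The sources used here do not give the strand setting or annotation version, so antisense and overlapping genes are uncertain. The deposited RPKM equalled counts per kilobase of table length and per 1e6 counted reads, within 5e-07. RPKM, which carries no TMM scaling, served for the order of genes within a group. Group differences were tested on the counts.

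Counts were tested with edgeR 4.0.16 in R 4.3.3: filterByExpr by group with a minimum count of 10 (18563 of 48897 genes), TMM scaling, 1 model of all 6 libraries with group as the factor (3 residual degrees of freedom), the quasi-likelihood test and Benjamini-Hochberg adjustment over all genes, with a threshold of 0.05. SE is the size of the log2 fold change over the square root of F. The procedure was tested on simulated data. Libraries of a group were not duplicates of each other (chi-square per gene 4.64 in control, 5.48 in TC and 7.87 in TCZ). Nothing says that the 2 libraries of a group are separate cultures, so p-values measure the spread between libraries, which may be technical.

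The members and lists were chosen with earlier results of these data known. Named genes were the 8 hosts, genes within 2 kb, hosted snoRNA rows, the nearest profiles and the extremes of each list, and others were named after their values were seen. Alternatives were DESeq2 1.42.0, RLE factors, library totals, other filters, 2 groups only, a replicate block, leaving out libraries, a term for control 2 and TCZ 2, a minimum change and, chosen after seeing the data, other transcript lengths for RPKM. Snhg16 and Norad were not analysed here. Snu13 and Gnb2l1 were analysed under the table's symbols, Nhp2l1 and Rack1. The values of 1 listed gene that this rule would name are not reported here.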

Additional observations from a re-analysis of the deposited data

How the results depend on the processing

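Snhg1, Snhg12 and Snhg15 kept direction and call in all 3 comparisons under the 15 alternatives compared host by host. Snhg6 did so in TC and TCZ against control. The minimum change is not among these 15. Under it Snhg1 and Snhg12 were not called in TCZ against TC, and Snhg6 was not called in any comparison. With DESeq2, RLE factors or no low-count filter, the counts of hosts called were the same as in the main analysis. With library totals 4 hosts in place of 5 were higher in TC against control, and 6 in place of 8 in TCZ against control. With a required log2 change of at least 1, 3 hosts were higher in TC against control, 4 in TCZ against control, and 1 higher and 1 lower in TCZ against TC, while genes called fell to 5439, 5965 and 4326. With at least 50 counts in 2 libraries Snhg3 was not tested and 1 host was higher in TCZ against TC. Leaving out each library in turn gave 0 to 2 hosts higher in TCZ against TC, with 0 without TCZ 1. Snhg8 in TC against control turned to -0.10 with library totals, -0.018 without control 2, -0.082 without TC 1, -0.014 without control 2 and TCZ 2, and -0.062 with a term for these, and leaving out each library gave values up to 0.16. Gas5 in TCZ against TC turned to -0.034 with library totals, -0.018 with no low-count filter, -0.041 without TC 2 and -0.0087 without TCZ 1, and leaving out each library gave values up to 0.064. Neither passed in any setting, and the cause was not tested. The replicate numbers are not said to pair libraries, and deviations of same-numbered libraries correlated at 0.01, 0.12 and -0.02 across genes. With the replicate block 5, 8 and 2 hosts were higher and 0, 0 and 4 lower in the 3 comparisons, as without it, and 11240, 11166 and 10434 genes were called against 11269, 11164 and 10413. Depth limits Snhg3, with 12 to 89 counts per library, and the snoRNA rows.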
